A study of Mus musculus with 4 samples.

Results

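Transcription termination site (TTS) peaks were the H3K36me3 peaks that the authors' annotation tables place at the end of a transcript. They numbered 13263 of 95750 peaks (13.9%, exact 95% interval 13.6 to 14.1) in the H2A.z1 conditional knockout (cKO) and 6429 of 36820 peaks (17.5%, interval 17.1 to 17.9) in wild type (WT). A peak was taken as a member when its annotation text before the bracket was TTS, and no measured value entered the choice. The series set H2A.z1cKO forebrain against wild type forebrain, both at embryonic day 13 on a C57BL/6 background and both described as neural progenitor cells. The series title describes the deletion of the histone variant as specific to the brain. The sources used here do not give the line driving the deletion, the number of embryos pooled or the share of cells that lost the gene. Each genotype had 1 H3K36me3 ChIP library and 1 input library of unselected chromatin, so the differences below have no replicate check and no test, and intervals cover counting error only.

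H3K36me3 is the trimethylation of lysine 36 of histone H3, written by SETD2, which rides on RNA polymerase II as it elongates. It marks the bodies of transcribed genes and increases towards their ends, where the transcript is cleaved, polyadenylated and released. H2A.Z, made from H2afz (now named H2az1) and its paralogue H2afv, replaces H2A mainly in nucleosomes near transcription starts.

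The ChIP libraries held 32927164 tags in cKO and 31984670 tags in WT after the authors' filtering, and the inputs held 35026817 tags in cKO and 38500353 tags in WT. The cKO list was longer in every class: 2.60 cKO peaks per WT peak over all classes and 2.06 for TTS peaks. Radial glia markers carried peaks for 9 of 12 genes in cKO and 7 of 12 in WT. Neuron markers carried peaks for 3 of 6 genes in each, intermediate progenitor markers for 2 of 5 in each, and GABAergic markers for 1 of 5 in each. Endothelial markers carried peaks for 1 of 4 genes in each, blood markers for 1 of 5 in cKO and 0 of 5 in WT, and microglial markers for 0 of 4 in each. On the X chromosome there were 7.28 cKO TTS peaks for each WT one (233 and 32 peaks), against 2.04 on the other chromosomes. Over all classes these ratios were 8.30 and 2.58, so the X surplus was not particular to TTS peaks.

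Some TTS peaks lay over microRNA hairpins, short transcripts that often end within a host gene. TTS peaks overlapped 72 of 1005 RefSeq hairpins in cKO and 40 of 1005 in WT, with 15 in both. The hairpins below are shown because their TTS peaks were shared by both lists, because the label differed between the lists at the same place, or, for miR-26b-5p, because it shares a seed with one of these. Capitals mark the seed, bases 2 to 8, which pairs with target messages (RefSeq, GRCm38.p6).
mmu-miR-1306-5p, in Dgcr8, TTS peak in both: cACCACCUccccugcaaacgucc
mmu-miR-9-5p, hairpin Mir9-3, TTS peak in both: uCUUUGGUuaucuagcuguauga
mmu-miR-7a-5p, in Hnrnpk, TTS peak in WT: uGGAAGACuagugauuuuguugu
mmu-miR-103-3p, in Pank3, TTS peak in WT: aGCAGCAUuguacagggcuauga
mmu-miR-26a-5p, in Ctdsp2, TTS peak in WT: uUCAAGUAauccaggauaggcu
mmu-miR-26b-5p, in Ctdsp1, TTS peak in cKO: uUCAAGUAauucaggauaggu

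The hairpin of miR-1306 lies in Dgcr8, which encodes a partner of the nuclease that cuts hairpins out of primary transcripts. Its TTS peak spanned 2876 bp in cKO (chr16:18281800-18284675) and 2389 bp in WT (chr16:18282222-18284610). The Mir9-3 hairpin, 1 of the sources of the brain microRNA miR-9, sits outside protein-coding genes, and its TTS peak was short in both lists: 292 bp in cKO and 255 bp in WT. miR-26a-5p and miR-26b-5p share the seed UCAAGUA and lie in the related phosphatase genes Ctdsp2 and Ctdsp1. The miR-26b hairpin was in a cKO TTS peak of 1662 bp and in no WT peak. The miR-26a hairpin was in a WT TTS peak of 584 bp, while the cKO peak over it was labelled promoter-TSS. The same change of label held for miR-7a (WT TTS peak of 232 bp) and miR-103 (192 bp). Over all 40 hairpins in WT TTS peaks, 40 lay in some cKO peak, 15 in a cKO TTS peak and 19 in a cKO promoter-TSS peak. Of the 72 hairpins in cKO TTS peaks, 25 lay in a WT peak of any class and 47 lay in none. Of the 259 hairpins in a cKO peak of any class, 91 lay in a WT peak and 168 in none.

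A few TTS peaks ran over the start of a gene. They touched 44 of 32851 RefSeq promoter windows (250 bases before to 50 after a start, 0.134%) in cKO and 14 in WT. The window was at the start of the gene holding the peak's midpoint for 6 of these in cKO and 2 in WT, and at another gene's start or at a midpoint outside protein-coding genes for the rest. Whole windows of protein-coding genes were covered at 4 starts in cKO and 0 in WT. Both sequences below lay inside a cKO TTS peak, and capitals mark the dinucleotide CG, which reads the same on both strands and is present in 94.6% of all windows (RefSeq, GRCm38.p6, shown 5′ to 3′ on the minus strand for Cd68 and the plus strand for Lhb).
Cd68, chr11:69666121-69666420: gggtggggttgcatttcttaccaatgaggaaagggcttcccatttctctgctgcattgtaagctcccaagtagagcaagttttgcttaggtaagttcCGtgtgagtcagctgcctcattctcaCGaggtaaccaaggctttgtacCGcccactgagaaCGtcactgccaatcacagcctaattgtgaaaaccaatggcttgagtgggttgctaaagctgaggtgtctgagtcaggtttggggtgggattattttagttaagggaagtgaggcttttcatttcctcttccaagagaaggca
Lhb, chr7:45420696-45420995: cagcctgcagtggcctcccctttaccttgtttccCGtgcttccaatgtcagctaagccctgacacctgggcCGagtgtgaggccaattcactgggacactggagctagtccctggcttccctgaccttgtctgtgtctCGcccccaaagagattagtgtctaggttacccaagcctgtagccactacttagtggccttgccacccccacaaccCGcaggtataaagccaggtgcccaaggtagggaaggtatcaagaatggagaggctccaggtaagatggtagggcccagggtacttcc

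Cd68, a macrophage gene, lies beside the widely expressed Eif4a1, and the cKO TTS peak that held its start ran for 7252 bp with its midpoint in Eif4a1. Lhb, a pituitary hormone subunit gene, lies beside Ruvbl2, and its cKO peak of 1032 bp had its midpoint in Ruvbl2 and no WT partner. Each window holds 4 CG, against a median of 7 over all windows.

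TTS peaks were wider in cKO than in WT and made up less of the full cKO list. They made up 19.6% of the 5308 strongest cKO peaks, which have the WT covered length, and 17.5% of all 36820 WT peaks. These 2 shares are not of like strength, since in WT the strongest of 10 equal groups held 20.2%. The median width of TTS peaks was 493 bp in cKO (quartiles 294 and 957) and 283 bp in WT (202 and 436). Peaks wider than 2 kb made up 8.47% in cKO (1124 peaks) and 0.653% in WT (42 peaks). Promoter-TSS peaks had median widths of 508 bp in cKO and 301 bp in WT, and exon peaks 473 bp and 279 bp. TTS peaks held 16.0% of all peak bases in cKO and 18.6% in WT. The cKO to WT ratio of bases in TTS peaks was 4.44, against 5.18 for all classes, 6.41 for intron peaks and 3.75 for exon peaks. The median −log10 q given by the authors, a peak's confidence over input, was 11.3 for TTS peaks and 10.04 for the rest in cKO, and 7.06 and 7.03 in WT. Promoter-TSS and exon peaks each had a median of 11.4 in cKO and 7.06 in WT, and intron peaks 9.79 and 6.33. In both lists the TTS share was highest among the strongest peaks. With each list cut into 10 equal groups by −log10 q, TTS peaks made up 18.6% of the strongest group and 11.3% of the weakest in cKO, and 20.2% and 16.7% in WT.

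Most TTS peaks had midpoints inside genes rather than in a short window at the ends of RefSeq genes. The midpoint fell within a protein-coding gene, outside the end window defined next, for 9485 cKO peaks (71.5%) and 4737 WT peaks (73.7%). It fell within 100 bp before to 1000 bp after the 3′ end of a protein-coding gene for 3086 cKO peaks (23.3%, interval 22.6 to 24.0) and 1356 WT peaks (21.1%, 20.1 to 22.1). Of the rest, 280 cKO and 176 WT peaks lay at the edge of a gene with no known strand, 229 and 118 inside another RefSeq gene, and 183 (1.38%) and 42 (0.653%) outside RefSeq genes. The same end window held 1.85% of promoter-TSS, 0.727% of exon, 0.0858% of intron and 4.20% of intergenic peaks in cKO. The TTS label is itself given at transcript ends, so these shares depend on the labelling and are no independent comparison. A midpoint in the window was counted there even when it also lay inside another gene. Peaks at gene ends were a little narrower than those inside genes, with medians of 461.5 and 511 bp in cKO and 279 and 286 bp in WT. Some TTS midpoints outside the window were still near an end. The nearest end of a gene with known strand lay 100 to 1000 bp further on for 953 cKO and 575 WT peaks.

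**Figure D1:**
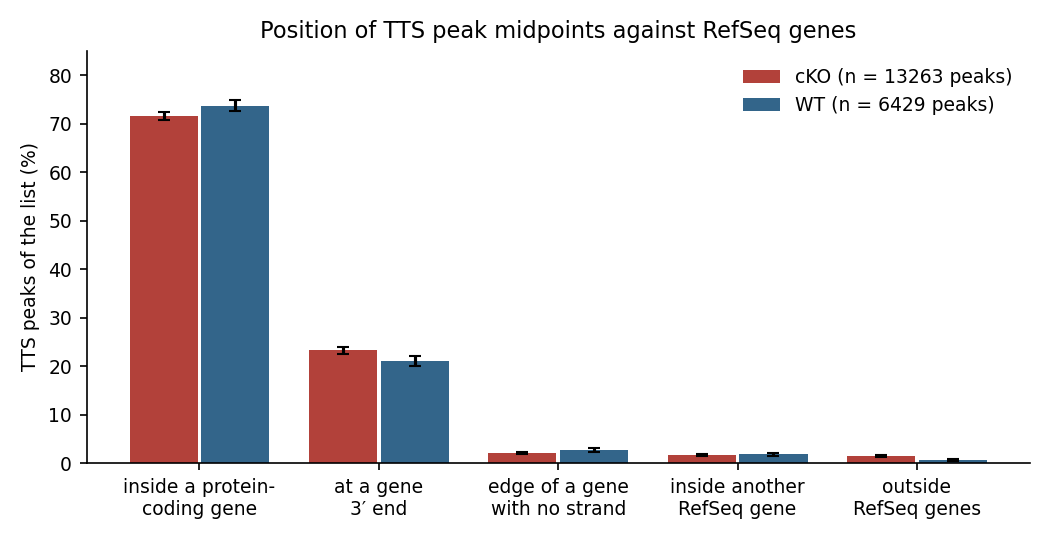
Share of TTS peaks (y axis, percent of each list's TTS peaks) by the place of the peak midpoint against RefSeq genes, for cKO (left bar of each pair, 13263 peaks) and WT (right bar, 6429 peaks); bars show exact 95% intervals for counting error. Most midpoints lay inside protein-coding genes, 71.5% in cKO and 73.7% in WT, and 23.3% and 21.1% lay at a gene's 3′ end.

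TTS peaks within genes leaned towards the 3′ part, as exon peaks did. Among midpoints inside 1 gene of at least 5 kb with a known strand, 44.6% of cKO TTS peaks (4264 of 9551) and 48.4% of WT TTS peaks (2334 of 4826) lay in the last of 5 equal stretches of the gene. The first stretch held 5.43% in cKO and 3.52% in WT. Exon peaks put 47.9% in the last stretch in cKO and 46.9% in WT, and intron peaks 24.7% and 27.5%.

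The gene name in the annotation tables belongs to the nearest transcript start, and the transcript that ends under the peak was often another one: the tables gave the same transcript for 25.6% of cKO and 26.7% of WT TTS peaks. Where the gene of the ending transcript was known, it was the named gene for 79.5% of 6485 cKO peaks and 82.4% of 3373 WT peaks. The following peaks had midpoints in the end window of a gene other than the named one. Such a midpoint may also lie inside the named gene, which was not tested. The TTS peak named for the mitotic cyclin gene Ccnb1 had its midpoint 370 bp past the end of the zinc transporter gene Slc30a5 (chr13:100801964-100802586, cKO). The peak named for the tubulin gene Tubb2a lay 910 bp past the end of Bphl in cKO (chr13:34074409-34075558) and 892 bp past it in WT (chr13:34074407-34075524). The peak named for the cyclin-dependent kinase gene Cdk4 lay 395 bp past the end of Tspan31 in cKO, and that named for the splicing regulator gene Ptbp1 lay 220 bp past the end of Plppr3 in WT. Gene values below follow the authors' names. The gene that holds the peak's midpoint, or whose end lies just before it, is given for some peaks where it differs. A gene counted as having no peak by name may hold a peak under another name.

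The 5 strongest and the 5 widest TTS peaks had no peak in common in cKO, while the WT sets shared those in Tubb5 and Ptprs. By −log10 q the first 5 in cKO were in Dpm1 (104.8), Zfp146 (96.5), Tubb5 (74.6), Zfp26 (70.8) and Midn (70.2), which span glycosylation, zinc finger proteins, tubulin and midnolin. In WT the first 5 included those in the actin gene Actb (54.3), at Tubb2a beside Bphl (53.8), in Tubb5 (50.1) and in Ptprs under the name of mir-6977 (49.2). These values depend on each library and rank peaks only within a list. Tubb5 stood in both sets, with a peak of 2253 bp in cKO and 3911 bp in WT. The widest cKO TTS peak ran for 17619 bp in Parp1, a DNA-damage sensor gene, under the name of mir-6904 (chr1:180578505-180596123). Prrc2b (14043 bp), Cad (12529 bp), Dot1l (12173 bp) and Prrc2a (11430 bp) followed. In WT the widest ran for 6008 bp in Ptprs, a receptor phosphatase gene, followed by Tubb5 (3911 bp), Zfp462 (3758 bp), the peak named for A3galt2 but lying in Phc2 (3421 bp) and Stmn1 (3291 bp). The widest WT TTS peak was thus narrower than each of the 5 widest of cKO.

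In the full lists nearly every WT TTS peak lay under a cKO peak, and most cKO TTS peaks had no WT peak. A cKO peak of any class overlapped 6294 of 6429 WT TTS peaks (97.9%) by at least 1 bp, and a WT peak overlapped 4141 of 13263 cKO TTS peaks (31.2%). These shares were close to those of promoter-TSS peaks (32.3% in cKO and 96.4% in WT) and exon peaks (31.7% and 97.9%), with intron peaks at 22.2% and 95.3%. They turned when the cKO list was cut to its strongest peaks: 56.2% of cKO and 85.3% of WT TTS peaks were overlapped at the WT number of peaks, and 93.3% and 35.0% at the WT covered length. A cKO peak held 5669 WT TTS peaks (88.2%) whole, and 876 cKO peaks held 2 or more, with up to 8 in 1 peak. Under a reciprocal overlap of 50% the shares were 6.70% of cKO and 14.1% of WT TTS peaks. The median cKO TTS peak spanned 1129 bp with a WT partner and 376 bp without. The 135 WT TTS peaks without a cKO partner were narrow, with a median of 189 bp.

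Overlapping peaks did not always share the class. Of the WT TTS peaks with a cKO partner, 1849 (29.4%) had no partner of class TTS, while 473 of the cKO TTS peaks with a WT partner (11.4%) had none. The cKO partners of WT TTS peaks were TTS for 70.6%, intron for 12.3%, exon for 8.82% and promoter-TSS for 7.61%, with some peaks counted in more than 1 class. After joining peaks up to 3 kb apart, a TTS peak stood alone in its stretch for 6.50% of cKO and 16.2% of WT peaks.

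**Figure D2:**
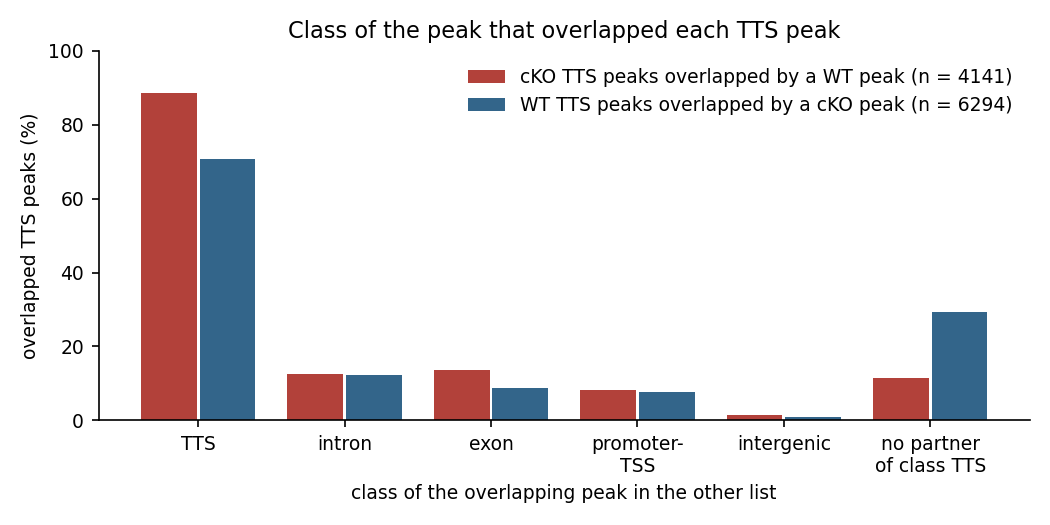
Class (x axis) of the peaks in the other list that overlapped a TTS peak, as a percent of overlapped TTS peaks (y axis), for 4141 cKO peaks (left bars) and 6294 WT peaks (right bars); a peak with partners of several classes counts in each. A TTS partner was lacking for 11.4% of overlapped cKO peaks and 29.4% of overlapped WT peaks.

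The 5 strongest TTS peaks without any partner held predicted genes and gene ends in both lists. In cKO the first 3 carried the names of predicted genes in 1 stretch of chromosome 8 and shared 1 product description. Whether these are copies of like sequence was not tested, so their counts are uncertain. The other two lay at gene ends: Eif2b4, a translation factor subunit gene (1098 bp, −log10 q of 37.8, chr5:31187021-31188118), and Itm2b, a membrane protein gene (610 bp, −log10 q of 37.3, chr14:73361605-73362214, midpoint 316 bp past the end). In WT 2 of the 5 carried names of predicted genes, Gm6788 and Gm5560. The others were Myo18a, an unconventional myosin gene (194 bp, −log10 q of 10.2), the peak named for Tmem110 that lay 649 bp past the end of Sfmbt1 (421 bp, 9.94), and the peak named for Tbce that lay 128 bp past the end of B3galnt2 (188 bp, 9.42).

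Around the 3′ ends of genes, coverage by peaks dipped just before the end and recovered past it in both lists. Over 6029 genes of at least 5 kb with a peak of any class in both lists, peaks covered 53.2% of the bases in cKO and 14.5% in WT in the 250 bp bin that starts 2000 bp before the end. In the last 250 bp before the end coverage was 30.8% in cKO and 5.80% in WT, and 250 to 500 bp past it 38.3% and 8.85%. Coverage 2000 bp past the end was 16.4% in cKO and 3.17% in WT. Among 2740 of these genes with no other gene within 5 kb downstream, the last bin held 23.0% in cKO and 3.52% in WT and the bin 250 to 500 bp past the end 32.1% and 5.48%. The cKO list reduced to its strongest peaks with the covered length of the WT list showed no such dip: 9.62% in the last bin and 8.47% in the bin 250 to 500 bp past the end. The reduced list held 5308 peaks with a median TTS peak width of 2056.5 bp, and peaks this wide resolve a dip of 250 bp poorly. That reduction was added after seeing the data.

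**Figure D3:**
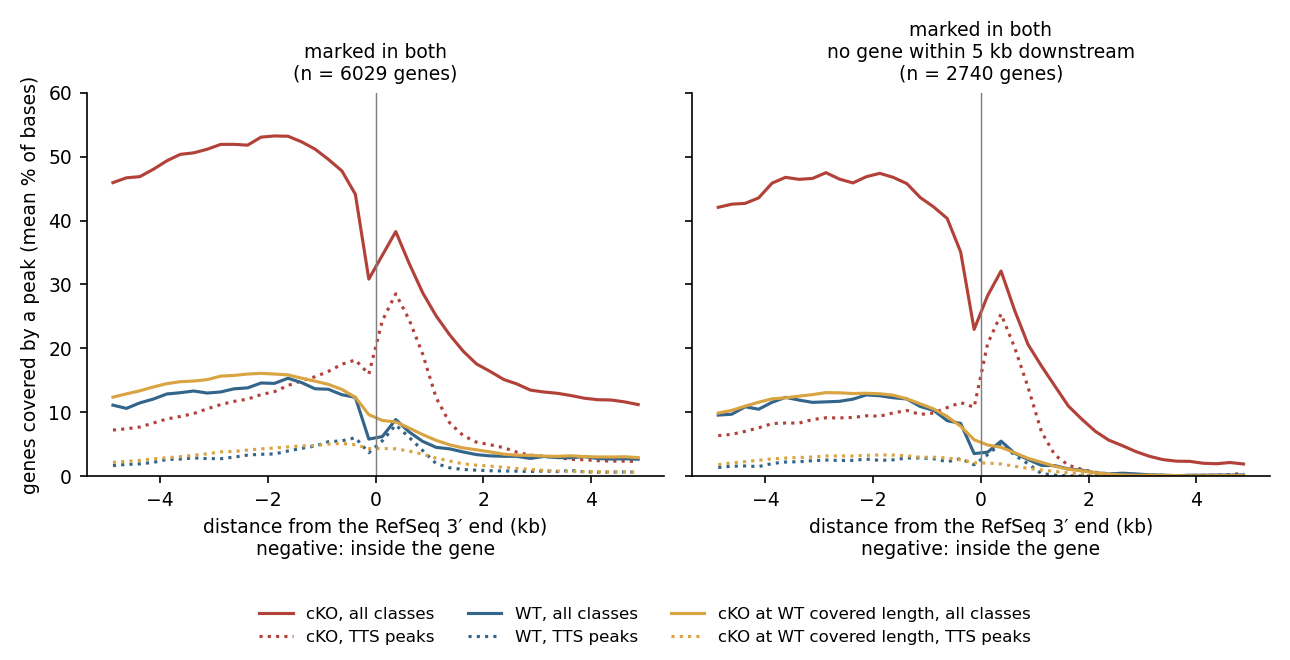
Mean percent of bases covered by peaks (y axis) in 250 bp bins from 5 kb inside a gene to 5 kb past its RefSeq 3′ end (x axis, kb), for 6029 genes marked in both lists (left) and the 2740 of them with no gene within 5 kb downstream (right). Solid lines show peaks of all classes and dotted lines TTS peaks, for cKO, WT and the cKO list at the WT covered length. In the full cKO and WT lists coverage was lower in the last 250 bp (30.8% and 5.80%) than 250 to 500 bp past the end (38.3% and 8.85%), and TTS peaks covered 28.5% and 8.00% in that bin past the end.

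In the full lists more gene ends were marked in cKO, which held 2.60 peaks per WT peak over all classes. Of 18575 protein-coding genes with a strand, the end window touched a TTS peak for 3606 genes (19.4%) in cKO and 1430 (7.70%) in WT. With peaks of any class it was 4765 genes (25.7%) in cKO and 1677 (9.03%) in WT, of which 1657 were marked in both and 20 in WT alone.

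By gene name, TTS peaks marked 6854 genes in cKO and 3692 in WT, 3170 of them in both. Of the 522 genes with TTS peaks in WT alone, 439 had a cKO peak of another class and 83 had none. In the genes marked in both, the median was 1935.5 bp of TTS peak in cKO and 446 bp in WT, with a median ratio of 3.73, against 4.99 for other classes in the 2521 of those genes with WT bases there. In 2417 genes with TTS and other peaks in both lists, TTS peaks made up a median of 22.7% of a gene's peak bases in cKO and 29.6% in WT. The TTS share was smaller in cKO for 1511 of them and larger for 906.

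A gene was counted as higher or lower in cKO when its bases in TTS peaks differed by at least 2-fold, or, if it had TTS peaks in 1 list alone, when they covered at least 300 bp. Of 7376 genes, 5313 were higher (72.0%) and 398 were lower (5.40%). On the bases of all classes 84.6% of 12987 genes were higher and 1.79% lower. Of the 696 WT TTS peaks in the 398 lower genes, 683 (98.1%) were overlapped by a cKO peak, and 589 (84.6%) only by cKO peaks of other classes, which choosing genes with fewer TTS bases in cKO favours. On all classes together 248 of the 398 (62.3%) were higher in cKO and 56 were lower. For the 4221 WT TTS peaks of the higher genes, 14.3% were overlapped by other classes alone. With the cKO list cut to its strongest peaks at the WT covered length, 600 of 3779 genes were higher (15.9%) and 1722 lower (45.6%).

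The largest surpluses in cKO came from genes with 1 to 8 cKO TTS peaks. Brwd1, a chromatin reader gene, had 18405 bp in 8 TTS peaks in cKO and 3691 bp in 5 in WT. Prrc2b had 14043 bp in 1 peak in cKO and no TTS peak in WT, where 15167 bp of other classes carried its name. Prrc2a had 13927 bp in cKO and 1198 bp in WT. Dot1l, the gene of the H3K79 methyltransferase, had 12617 bp in cKO and 752 bp in WT, and Cad, a pyrimidine synthesis gene, 12529 bp in cKO and 550 bp in WT. Naa35, an acetyltransferase subunit gene, had 15197 bp in cKO and 1770 bp in WT, and Abl1, a tyrosine kinase gene, 13519 bp and 1663 bp. Tln1 of cell adhesion had 12331 bp in cKO and 957 bp in WT, the ATPase gene Vcp 11703 bp and 587 bp, and the ribosome assembly gene Lsg1 12182 bp and 1155 bp. Bases of other classes were fewer in cKO for Prrc2a (0 bp in cKO and 5155 bp in WT), Vcp (4804 bp and 6582 bp) and Dot1l (4985 bp and 5578 bp). At the WT covered length the surplus became a deficit for Cad and Tln1, and it was 2923 bp for Naa35 (13427 bp in the full lists) and 5419 bp for Lsg1 (11027 bp).

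All 10 of the largest deficits were genes with more bases of other classes in cKO. Tle3, a corepressor gene, had 829 bp of TTS peak in cKO and 6240 bp in WT, with 24798 bp of other classes in cKO and 7634 bp in WT. Its 6 WT TTS peaks all lay under cKO peaks, 3 of them exon and 1 intron. Akt1, a survival kinase gene, had no TTS peak in cKO and 4089 bp in 4 peaks in WT, all 4 under cKO promoter-TSS peaks. The same was true of the 5 WT TTS peaks of Ppp1cc, a phosphatase gene (3116 bp). Usp22, a histone deubiquitinase gene, had 311 bp in cKO and 4413 bp in WT, with 4 of its 5 WT peaks under cKO promoter-TSS peaks. Eif4g1, a translation initiation gene, had none in cKO and 3805 bp in WT, with 3 of 4 under promoter-TSS peaks. Ncaph2, a condensin gene, had none in cKO and 3369 bp in WT, all 4 peaks under intron peaks. Zfp462 had none in cKO and 3758 bp in WT, under a cKO exon peak. Phykpl had 1430 bp in cKO and 4501 bp in WT, with 6 of 8 WT peaks under intron peaks. The peaks named for A3galt2, whose widest lay in Phc2, had 869 bp in cKO and 5949 bp in WT.

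Some genes carried many TTS peaks. Ncor1, a corepressor gene, had 17 TTS peaks in cKO (11481 bp) and 5 in WT (1937 bp), and Gapvd1 had 11 in cKO (6508 bp) and 5 in WT (1198 bp). Ergic2 had 11 in cKO (5594 bp) and 4 in WT (1020 bp). At the WT covered length the surplus was 544 bp for Ncor1 and 42 bp for Gapvd1, and Ergic2 had no TTS peak left in cKO. The splicing regulator gene Rbm5 had 7 in cKO and 15 in WT, yet more bases in cKO (17512 bp) than in WT (6672 bp). Trp53bp1, a DNA repair gene, had 9 in cKO (10429 bp) and 11 in WT (3754 bp), and Srrm1, a splicing gene, 5 in cKO (11177 bp) and 10 in WT (3804 bp). Fewer and longer peaks in cKO thus went with more covered bases in these last 3 genes.

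The deleted gene itself carried a short TTS peak in each list. The H2afz peak spanned 412 bp in cKO (chr3:137866026-137866437, −log10 q of 3.54) and 190 bp in WT (chr3:137866027-137866216, −log10 q of 9.49), both inside the gene. The deleted part of the gene is not stated in these sources, so the peak checks neither the deletion nor the labels. H2afv had no TTS peak in either list.

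The genes of cleavage and polyadenylation, which make the 3′ ends that the class is named for, were marked more in the full cKO list, like most genes. Of 20 genes, 12 had a TTS peak in cKO and 8 in WT. Of the 13 with one in either list, 10 were higher in cKO and 0 lower, beside 72.0% higher and 5.40% lower among all genes with TTS peaks. The median over the 13 was 1455 bp in cKO and 317 bp in WT, against 897 bp and 152 bp over all 7376 genes. Papola, the gene of the main nuclear poly(A) polymerase, had 10542 bp in 10 peaks in cKO and 2199 bp in 6 in WT, all of them inside the gene. Its widest cKO peak (chr12:105827730-105832235, 4506 bp) covered the place of 2 WT peaks of 482 and 527 bp. Cstf3, of the cleavage stimulation factor, had 3295 bp in cKO and 364 bp in WT, and Fip1l1, of the polyadenylation specificity complex, 3105 bp and 489 bp. Pabpn1, the nuclear poly(A)-binding protein gene, had 3037 bp in cKO and 317 bp in WT. Rbbp6 differed little, with 1497 bp in cKO and 1522 bp in WT. At the WT covered length, where 15.9% of all genes were higher and 45.6% lower, 3 of 9 genes were higher and 4 lower, and Cstf3 and Fip1l1 had no TTS peak left in cKO.

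Termination and elongation factors gave 12 of 23 genes with a TTS peak in cKO and 9 in WT. Of the 13 with one in either list, 11 were higher in cKO and 1 lower, again beside 72.0% and 5.40%. Ssrp1, of the histone chaperone FACT, had 7621 bp in 2 peaks in cKO and 1560 bp in 2 in WT. Ppp1ca and Ppp1r10, a phosphatase and its targeting subunit that act at termination, had 4321 bp in cKO and 1361 bp in WT, and 2781 bp and 1289 bp. Rtf1, of the PAF complex, had 3033 bp in 3 peaks in cKO and no TTS peak in WT. Xrn2, the exonuclease that degrades the RNA left after cleavage, had 373 bp in cKO and no TTS peak in WT. Setd2, which writes the mark itself, had 2367 bp in cKO and 925 bp in WT. Cdk9, the kinase that releases paused polymerase, was lower, with no TTS peak in cKO and 1599 bp in 3 peaks in WT, all 3 overlapped by cKO exon or promoter-TSS peaks. In the cKO list of WT covered length 4 of 10 genes were higher and 4 lower, and Setd2 had no TTS peak left in cKO.

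Radial glia and progenitor genes were mixed. TTS peaks marked 12 of 25 genes in cKO and 11 in WT, and of the 14 with one in either list 6 were higher in cKO and 2 lower, beside 72.0% and 5.40% over all genes. The median was 1521.5 bp in cKO and 587 bp in WT. Notch1, the receptor gene that keeps progenitors undifferentiated, had 6242 bp in 2 peaks in cKO and 2907 bp in 4 in WT. Tead2, a partner of the growth regulator YAP, had 4694 bp in cKO and 612 bp in WT, and Glul, the glutamine synthetase gene, 4168 bp and 414 bp. Pax6, a determinant of dorsal progenitors, had 3885 bp in 5 peaks in cKO and 1310 bp in 3 in WT, and 1 of the cKO peaks lay 905 bp past the end of Elp4, the facing neighbour. Mki67, a proliferation gene, had no TTS peak in cKO and 562 bp in WT, and Dbi none in cKO and 405 bp in WT. Both had more peak bases of all classes in cKO: Mki67 had 23854 bp in cKO and 9254 bp in WT, and Dbi 4150 bp in cKO and 610 bp in WT. At the WT covered length 1 of 11 genes was higher and 7 lower, and Tead2 and Glul had no TTS peak left in cKO.

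Genes of later stages carried few TTS peaks, and their counts stand beside 72.0% higher and 5.40% lower over all genes. Intermediate progenitor genes had 5 of 14 in each list, with 3 of 6 higher and 1 lower in cKO, and medians of 553 bp in cKO and 453.5 bp in WT. Dll1, a Notch ligand gene, had 2475 bp in cKO and 2060 bp in WT, and Mfng, which glycosylates Notch, 1937 bp and 699 bp. Btg2, an antiproliferative gene, had 637 bp in cKO and 315 bp in WT, and the neuronal RNA-binding protein gene Elavl4 469 bp and 387 bp. Gadd45g, a stress and growth arrest gene, had no peak of any class in cKO and a TTS peak of 520 bp in WT (chr13:51847939-51848458). Of 5 genes left at the WT covered length, 0 were higher and 5 lower. Cortical neuron genes had 2 of 20 in each list, among them Map2, a neuronal cytoskeleton gene, with 1937 bp in cKO and 572 bp in WT, and 2 of the 3 with one in either list were higher in cKO and 0 lower. Bcl11b, a deep-layer factor gene, had 350 bp in cKO and no TTS peak in WT, and Stmn2 none in cKO and 157 bp in WT. Of the GABAergic lineage 2 of 12 had one in each list, 1 higher and 1 lower in cKO. Dlx2, a forebrain interneuron factor gene, had 212 bp in cKO and 486 bp in WT and was lower. The peaks named for Lhx6 (1578 bp in cKO and 312 bp in WT) had their midpoints in or just past Rbm18.

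Ubiquitously transcribed genes had TTS peaks in 15 of 24 genes in cKO and 14 in WT, with 8 higher and 1 lower of 16, beside 72.0% and 5.40% over all genes. Of 14 left at the WT covered length, 2 were higher and 7 lower. Their median was 1585.5 bp in cKO and 1108.5 bp in WT. Polr2a, the largest subunit of RNA polymerase II, had 10571 bp in 2 peaks in cKO and 1202 bp in 2 in WT, and the chaperone gene Hsp90ab1 5718 bp and 922 bp. Ywhaz, a 14-3-3 protein gene, had 4624 bp in cKO and 1558 bp in WT. Actb had 3447 bp in cKO and 3280 bp in WT, and the ribosomal gene Rplp0 1020 bp and 1015 bp. Gapdh, of glycolysis, had 1480 bp in cKO and 2152 bp in WT, and Tubb5 2253 bp and 3911 bp. All these counts go by name and can miss peaks. The ribosomal gene Rpl13a had no peak under its name in either list. Yet a WT TTS peak of 2158 bp named Snord35a (−log10 q of 35.9) was placed in Rpl13a by its midpoint and had a cKO partner.

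Histone genes carried TTS peaks in 1 of their 2 classes. None of the 12 replication-dependent histone genes listed had a peak of any class under its name in either list. Their messages end in a stem-loop and carry no poly(A) tail, and a link to the lack of peaks was not tested. Of 10 replacement histone genes, whose messages are for the most part polyadenylated, 5 had a TTS peak in cKO and 6 in WT. In cKO 3 of 6 were higher, among them the deleted gene H2afz, and 1 lower, beside 72.0% and 5.40% over all genes. The medians were 1434 bp in cKO and 414 bp in WT. Of 6 at the WT covered length, 0 were higher and 2 lower. H2afy, the macroH2A gene, had 4550 bp in cKO and 243 bp in WT, and H3f3a, for histone H3.3, 1579 bp and 840 bp. Its sister gene H3f3b had 1289 bp in cKO and 515 bp in WT, and Cenpa, the centromeric H3 variant gene, 2132 bp and 1214 bp. H2afx, the damage-response variant gene, was the lower one, with no TTS peak in cKO and 313 bp in WT. The replacement genes H1f0, H1fx and H2afy2 also had no peak of any class under their names in either list.

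Blood, endothelial and microglial markers gave 1 of 18 genes with a TTS peak in cKO and 0 in WT. The gene was Alas2, an erythroid haem synthesis gene on the X chromosome, with 1065 bp in 3 peaks in cKO. Its neighbour Apex2 held the midpoints of 2 of the 3, and the third lay 631 bp past the end of Alas2. TTS peaks on the X chromosome were 7.28 times as many in cKO as in WT, and peaks of all classes 8.30 times. The part of this in the Alas2 value was not tested.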

How the data were processed

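H3K36me3 peaks were called by the authors with MACS2 per the file headers, which give version 2.1.1.20160309, a p cutoff of 1.00e-05 and fragment lengths of 185 bp in cKO and 152 bp in WT. The submitters' processing notes name Bowtie2 2.2.9, MACS2 2.1.0 and build mm10. The effect of the fragment length on widths was not tested. The deposited pileup (a signal), −log10 p and q values, and fold over input were used within a list only. The tool and window behind the deposited TTS class are not given in the sources used here.

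Peaks were joined to annotation rows by position, with coordinates 1-based. Positions used RefSeq genes of GRCm38.p6. Strand came from the promoter table for 17492 of 21887 protein-coding genes and from the order of intron and exon numbers for 1083. The other 3312 had none. Where both sources gave a strand, 98.5% were alike. Bases per gene were summed over TTS peaks by the authors' gene name. Scripts were checked on simulated data in Python 3.11.15 with numpy 2.4.6 and pandas 2.3.3. There is 1 ChIP library per genotype, so no test was run.

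Named genes were H2afz and H2afv, the list members with most TTS bases and those lower in cKO, the 5 strongest and 5 widest peaks, the 10 largest differences each way, the 5 strongest peaks without partner and the 3 genes with most peaks. A few genes that this rule names are not reported here. List members in addition to these were named after their values were seen. Members and lists were chosen with earlier results of these data known. Alternatives kept peaks from a −log10 q of 5 or from a fold of 4, or shortened the cKO list, strongest first, to WT peak number or WT covered length. Others changed the overlap rule, asked for 4-fold differences, or took TTS transcripts of the named gene alone.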

Additional observations from a re-analysis of the deposited data

How the results depend on the processing

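The larger number of TTS peaks in cKO (ratio 2.06) turned round when the cKO list was reduced to its strongest peaks: 0.925 at the WT number of peaks and 0.162 at the WT covered length. The TTS share in cKO was 16.2% and 19.6% under these reductions, the second above the 17.5% in WT, and 14.2% at a fold of at least 4. Reduced to the WT number, 56.2% of cKO and 85.3% of WT TTS peaks were overlapped, 3132 genes were higher and 603 lower. At the WT covered length it was 93.3% and 35.0%, with 600 genes higher (15.9%) and 1722 lower (45.6%), and 18.9% of cKO TTS peaks lay at a gene 3′ end and 76.4% inside a protein-coding gene (both added after seeing the data). At a −log10 q of at least 5, 26.6% of cKO TTS peaks were overlapped, and at a fold of at least 4, 32.3% of cKO and 94.6% of WT. With a TTS partner required the shares were 27.7% and 69.1%, and with a reciprocal overlap of 50%, 6.70% and 14.1%. With TTS transcripts of the named gene alone 2751 genes were higher. Fewer peaks enter the reduced and filtered lists by construction. The difference in bases turned to -190 for H2afz at a −log10 q of at least 5 and at the WT covered length, and at that length to -550 for Cad, -957 for Tln1 and -1020 for Ergic2. No paired analysis was possible because each genotype has 1 ChIP library.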
